A study of Mus musculus with 8 samples.

Results

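Chromatin accessibility was examined around 9 genes for secreted immune signals, the cytokines Il6, Lif, Csf1 and Il33 and the chemokines Ccl2, Ccl5, Cxcl1, Cxcl10 and Cxcl12, in mouse melanoma cell lines. A region of the deposited count table was taken as a member if it lay inside one of these genes in the mouse assembly GRCm38, or within 50 kb of it with no end of another protein-coding gene nearer. This rule, which uses position and no measured value, gave 111 of the 148664 regions. There were 25 regions at Csf1, 18 each at Cxcl12 and Il33, 14 at Lif, 12 at Ccl2, 10 at Cxcl10, 8 at Cxcl1, and 3 each at Il6 and Ccl5. Of these, 29 overlapped the gene itself and 82 lay outside it, and all 10 regions of Cxcl10 lay within another gene, Art3. The regions were 501 to 1809 bp long.

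ATAC-seq, in which the Tn5 transposase cuts open DNA and tags it for sequencing, had been run on 8 libraries of 4 melanoma lines, with 50000 cells in each reaction. Lines 112 and 113 are labelled STAT3 knockout (Stat3∆ in the protocol) and lines 119 and 73 wild type (Stat3fl, a name given to an allele flanked by recombination sites), with 2 biological replicates per line. All 4 were started from lymph node cells of animals whose skin melanoma appeared at about 25 to 30 weeks of age. The protocol calls the lines pools, while the labels list the line number as a clone. The driver of the melanoma, the recombinase and its promoter, and any treatment of the cells are not given in the sources used here. What the p numbers in the titles mean (p18, p44, p14 and p68 for lines 112, 113, 119 and 73) is not given in the sources used here. Each genotype is represented by only 2 lines, so genotype and line of origin cannot be told apart. The libraries are not stated to come from separate cultures, so a p between lines measures the spread between libraries, which may be technical.

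Cytokines and chemokines act on cells through surface receptors. Il6 and Lif signal through receptors that share the gp130 subunit and activate STAT3, the factor that is deleted in the knockout lines. Csf1 sustains macrophages, Ccl2 draws monocytes, Ccl5 and Cxcl10 draw T cells, Cxcl1 draws neutrophils, Cxcl12 guides cells that carry Cxcr4, and Il33 is a nuclear alarm signal released by damaged cells. Many of these genes are switched on by NF-kB, AP-1, C/EBP and interferon-driven factors that bind close to their starts. Open chromatin shows where factors can reach the DNA. It does not measure the RNA or the secreted protein.

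The DNA just before the start is shown for 4 of the genes, those with a match to the NF-kB motif there. Each sequence runs 5′ to 3′ over 250 bases and ends at the base before the start, from RefSeq on GRCm38.p6. Capitals mark matches to NF-kB (GGG, any 3 bases, TTCC), AP-1 (TGANTCA), C/EBP (TTGCNNAA) or the interferon response element (GAAA, any 2 bases, GAAA), on either strand, and neighbouring matches can overlap.
Cxcl1 (chr5:90890995-90891244, plus strand): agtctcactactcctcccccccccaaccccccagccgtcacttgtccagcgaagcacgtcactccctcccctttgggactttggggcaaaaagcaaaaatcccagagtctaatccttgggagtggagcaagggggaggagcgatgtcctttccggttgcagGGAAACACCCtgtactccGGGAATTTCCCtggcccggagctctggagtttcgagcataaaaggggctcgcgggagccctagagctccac
Il6 (chr5:30012864-30013113, plus strand): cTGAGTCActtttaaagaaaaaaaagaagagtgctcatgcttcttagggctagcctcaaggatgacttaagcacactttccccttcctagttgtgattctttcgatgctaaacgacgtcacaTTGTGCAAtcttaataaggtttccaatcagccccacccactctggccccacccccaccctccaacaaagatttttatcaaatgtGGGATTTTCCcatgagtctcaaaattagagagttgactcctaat
Cxcl10 (chr5:92348890-92349139, minus strand): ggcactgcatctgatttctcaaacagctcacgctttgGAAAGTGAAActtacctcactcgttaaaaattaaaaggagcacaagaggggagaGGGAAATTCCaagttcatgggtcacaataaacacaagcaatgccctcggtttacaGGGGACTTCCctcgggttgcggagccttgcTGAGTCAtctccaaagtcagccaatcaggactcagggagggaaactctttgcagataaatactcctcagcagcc
Csf1 (chr3:107760470-107760719, minus strand): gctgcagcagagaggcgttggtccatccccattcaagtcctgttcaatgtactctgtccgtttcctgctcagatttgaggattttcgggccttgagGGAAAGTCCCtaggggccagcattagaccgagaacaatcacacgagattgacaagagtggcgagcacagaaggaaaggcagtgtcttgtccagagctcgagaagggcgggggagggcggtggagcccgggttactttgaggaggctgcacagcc

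In Cxcl1 the NF-kB letters began 89, 71 and 70 bases before the start, the last pair overlapping. In Cxcl10 they began 159 and 104 bases before the start, with an interferon response element at 213 and an AP-1 match at 74. Il6 had an AP-1 match at 249, a C/EBP match at 128 and an NF-kB match at 44, and Csf1 an NF-kB match at 154. Promoter windows of 300 bases (250 before the start and 50 after it) were found for 7 of the 9 genes, not for Ccl2 and Ccl5. Il33 had 2, and 4 of these 8 windows held the NF-kB motif. Of all 32851 promoter windows in the table, 5.56% held it. AP-1 letters stood in 3 of the 8 windows (Il6, Cxcl10 and Lif) against 7.81% of all windows, C/EBP letters in 2 (Il6 and the second Il33 window) against 10.8%, and the interferon response element in 1 (Cxcl10) against 3.44%. The STAT motif TTCNNNGAA stood in 0 of the 8 windows and in 8.3% of all. A match describes letters only, and a window without one says nothing of the factor.

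The libraries held 2697546 to 7464336 counts over all regions, lowest in line 112 replicate 2 and highest in line 119 replicate 1. Values below are CPM (counts per 1000000, on TMM-normalized library sizes), and 3 counts, the limit that a count of 0 allows, come to 0.388 to 0.923 CPM. Such limits cover counting error only. At Stat3, the region at the gene's end with most counts (chromosome 11, 100939208 to 100939818) held 25.9 to 38.5 CPM in the knockout libraries and 18.2 to 38.9 CPM in the wild-type libraries. The labels do not give the deleted part of Stat3, so this value is no check of the genotype. Most of the 9 melanocyte lineage genes listed were open in lines 112, 113 and 119, where the strongest region of Tyr, an enzyme of pigment synthesis, averaged 35.2, 55.2 and 42.7 CPM and that of Sox10, a lineage factor, 26.4, 36.7 and 25.7 CPM. In line 73 the same regions held 0.395 and 3.42 CPM, and those of Ednrb and Tyrp1, further lineage genes, held 1.32 and 1.47 CPM. The strongest regions of Pmel, Mitf and Dct were open there too, at 74.6, 39.1 and 15.1 CPM. The strongest region of Mlana, another lineage gene, held 17.8 and 26.0 CPM in lines 112 and 113 and only 1.72 and 1.62 CPM in lines 119 and 73. At the strongest regions of 5 of the 6 stroma genes listed, line 73 had the highest mean, most of all at Pdpn (43.8 CPM, against 0.929 to 2.08 CPM in the others) and Pdgfrb (48.2 CPM, against 3.64 to 12.9 CPM). Pdgfra (40.0, 27.8, 26.6 and 49.2 CPM in lines 112, 113, 119 and 73), Col1a2 (31.5, 5.87, 29.0 and 42.6 CPM) and Col1a1 (19.8, 23.1, 25.6 and 35.7 CPM) were open in other lines too, and Dpt was highest in line 119 (11.9, 10.9, 32.9 and 16.7 CPM). The summed level of the 6 genes was 277.7 to 398.6 CPM in knockout and 362.7 to 868.2 CPM in wild-type libraries, and 5 of 71 tested regions were higher (7.04%, against 7.64% of all regions) and 7 lower (9.86%, against 7.41%) in both knockout lines than in both wild-type lines. Counts of member regions and the leading regions are therefore also given against line 119 alone.

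Across the members, 13 regions were less accessible in both knockout lines than in both wild-type lines, and 4 were more accessible. Such a region, called separated here, was past the threshold (adjusted p under 0.05, edgeR's quasi-likelihood test) and had the same sign when each of the 2 knockout lines was set against each of the 2 wild-type lines. A separated region thus passes against line 119 by definition. Its values against line 119 alone give the size of the difference and are no further check. The 13 lower regions are 11.9% of the 109 tested, against 7.41% of all 140329 tested regions, and the 4 higher regions are 3.67%, against 7.64%. Ccl2, with 12 tested regions, held 6 of the lower regions, Cxcl1, Cxcl10 and Il33 held 2 each and Csf1 held 1. With Ccl2 set aside, the share of lower regions among the other members was near that of all regions. The higher regions were 1 each at Ccl5, Cxcl10, Csf1 and Il33. Il6, Lif and Cxcl12 held none. The low share of higher regions was not kept under an offset for the median shift of each 10 Mb stretch. Cxcl10 then had 3 higher regions in place of 1, and Cxcl1 and Lif had 1 each in place of 0. Of all regions, 6.96% were higher under this offset. With line 119 as the only wild-type line, a choice made after seeing the data, 22 member regions were lower (20.2%, against 18.9% of all regions) and 10 higher (9.17%, against 15.3%) in both knockout lines.

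When each line was a single unit, 2 knockout against 2 wild-type lines, no member region passed the threshold in edgeR's quasi-likelihood test, and 0% of all 140329 regions did. The smallest adjusted p among members was 0.143. An unadjusted p under 0.05 was reached by 22 members, 18 of them lower in knockout, which is 20.2% of members against 16.9% of all regions. The median log2 fold change (knockout over wild type) stood at -0.76 for the 109 member regions and -0.09 for all regions, and 76 of the 109 lay below 0. Without line 112 replicate 1, 617 of all regions passed, 0 of them members. DESeq2's Wald test on the same line sums called 10 members, among 4.83% of all regions. They were 6 regions of Ccl2 and 1 each of Cxcl1, Ccl5, Cxcl10 and Il33.

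**Figure D1:**
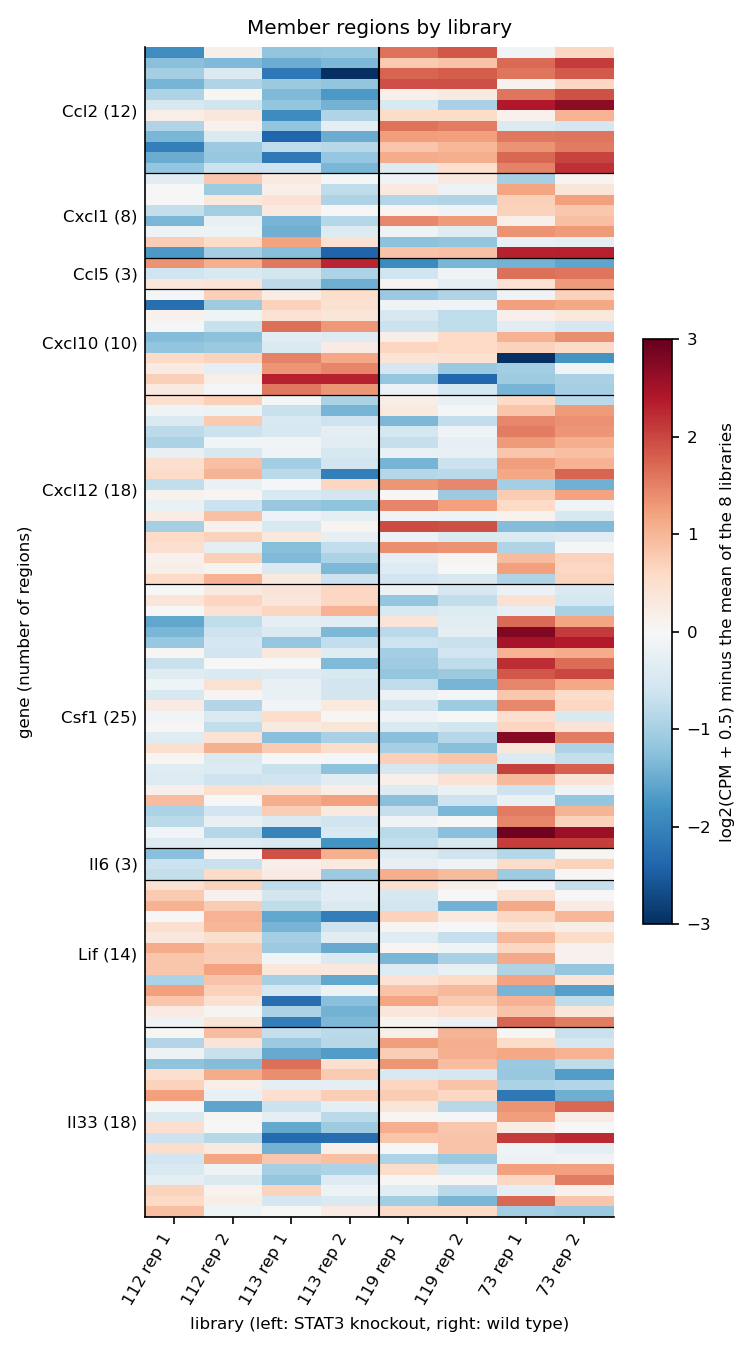
Log2(CPM + 0.5) of the 111 member regions in the 8 libraries, minus the mean over the libraries for each region (colour, red above and blue below that mean, saturated at 3), with genes as blocks and regions in genomic order within each. Nearly all Ccl2 regions are blue in the 4 knockout libraries on the left, and many Csf1 regions are red in line 73 alone.

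The monocyte chemokine gene Ccl2 lay in chromatin that was nearly closed in the knockout lines and open in both wild-type lines. Its start region, at the lower-coordinate end of the gene (chromosome 11, 82035199 to 82035780), held 2.79 and 3.69 CPM in line 112, 1.59 and 3.63 CPM in line 113, 19.5 and 19.1 CPM in line 119, and 30.0 and 37.2 CPM in line 73. All 4 knockout libraries lay below all 4 wild-type libraries. Its log2 fold change by genotype was -3.19 (SE 0.82, adjusted p 0.143 in edgeR's quasi-likelihood test with lines as units). Against line 119 alone, the log2 fold change was -2.59 for line 112 (SE 0.32, adjusted p 1.5e-09) and -2.89 for line 113 (SE 0.32, adjusted p 3.72e-11). Lines 112 and 113 did not pass the threshold against each other (log2 0.30, SE 0.46, adjusted p 0.67).

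The low values ran over the whole neighbourhood of Ccl2. All 12 regions had a negative log2 fold change by genotype, with a median of -2.72. Line 113 was below line 119 at 11 of 12 and below line 73 at 11 of 12 regions past the threshold, and line 112 was below them at 8 and 9. The strongest region, 27651 bp below the gene (toward lower coordinates, 82006716 to 82007926), held 4.89, 4.62, 4.08 and 4.60 CPM in the knockout libraries, 21.6 and 22.8 CPM in line 119, and 41.2 and 54.2 CPM in line 73. The region 23345 bp below the gene (82011677 to 82012232) held 2.095 and 3.39 CPM in line 112, 0.680 CPM in line 113 replicate 1 and a count of 0 in replicate 2, against 15.6 to 18.3 CPM in the wild-type libraries. There the 2 knockout lines differed too, line 112 being higher than line 113 by a log2 of 2.83 (SE 0.75, adjusted p 0.00352). Another one, 2909 bp below the gene (82032094 to 82032668), held 0.680 to 4.00 CPM in knockout and 13.8 to 18.1 CPM in wild-type libraries. Not all regions were shared by the wild-type lines, since line 73 was above line 119 at 6 of the 12 and line 119 above line 73 at 3.

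The authors' peak calls at Ccl2 followed the counts. In line 119 they covered 9 of the 12 regions in each library and in line 73 they covered 7 and 8. Line 113 had 1 and 2 of the regions covered, and line 112 had 0 in each library. Line 113 had nearly as many peaks over the genome (51700 and 52250) as line 73 (56497 and 56096), while line 112 had fewer (38743 and 20387) and line 119 more (94906 and 85498). Summed over its regions, Ccl2 averaged 29.1, 21.2, 140 and 200 CPM in lines 112, 113, 119 and 73. The 4 neighbouring chemokine genes on chromosome 11 had 2 of 5 tested regions lower in knockout at Ccl11, 1 of 4 at Ccl8, and 0 of 3 each at Ccl7 and Ccl12. The difference from Ccl2 was not tested. The strongest region of Ccl11, which draws eosinophils, averaged 1.58 and 0.816 CPM in lines 112 and 113 and 19.9 and 22.4 CPM in lines 119 and 73.

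Ccl5, a T cell chemokine, gave the opposite order at 1 region inside the gene (83529086 to 83529779), 739 bp from its higher-coordinate end. It held 11.6 and 9.54 CPM in line 112, 13.8 and 23.0 CPM in line 113, 0.776 and 1.35 CPM in line 119, and 1.28 and 1.11 CPM in line 73. The knockout and wild-type libraries did not overlap. The log2 fold change by genotype was 3.69 (SE 0.93, adjusted p 0.143), the largest positive value among the named regions, and the authors called a peak there in 4 of 4 knockout and 0 of 4 wild-type libraries. Against line 119 alone it was 3.34 for line 112 (SE 0.40, adjusted p 7.41e-10) and 4.12 for line 113 (SE 0.36, adjusted p 2.66e-14). Line 113 was also above line 112 (log2 0.78, SE 0.27, adjusted p 0.029). The other regions of Ccl5 did not follow. The strongest one, 4019 bp beyond the gene (83534537 to 83535153), held 3.39 to 6.25 CPM in lines 112, 113 and 119 and 22.8 and 22.2 CPM in line 73. Peak calls there ran opposite to those inside the gene, with 0 of 4 knockout and 4 of 4 wild-type libraries.

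**Figure D2:**
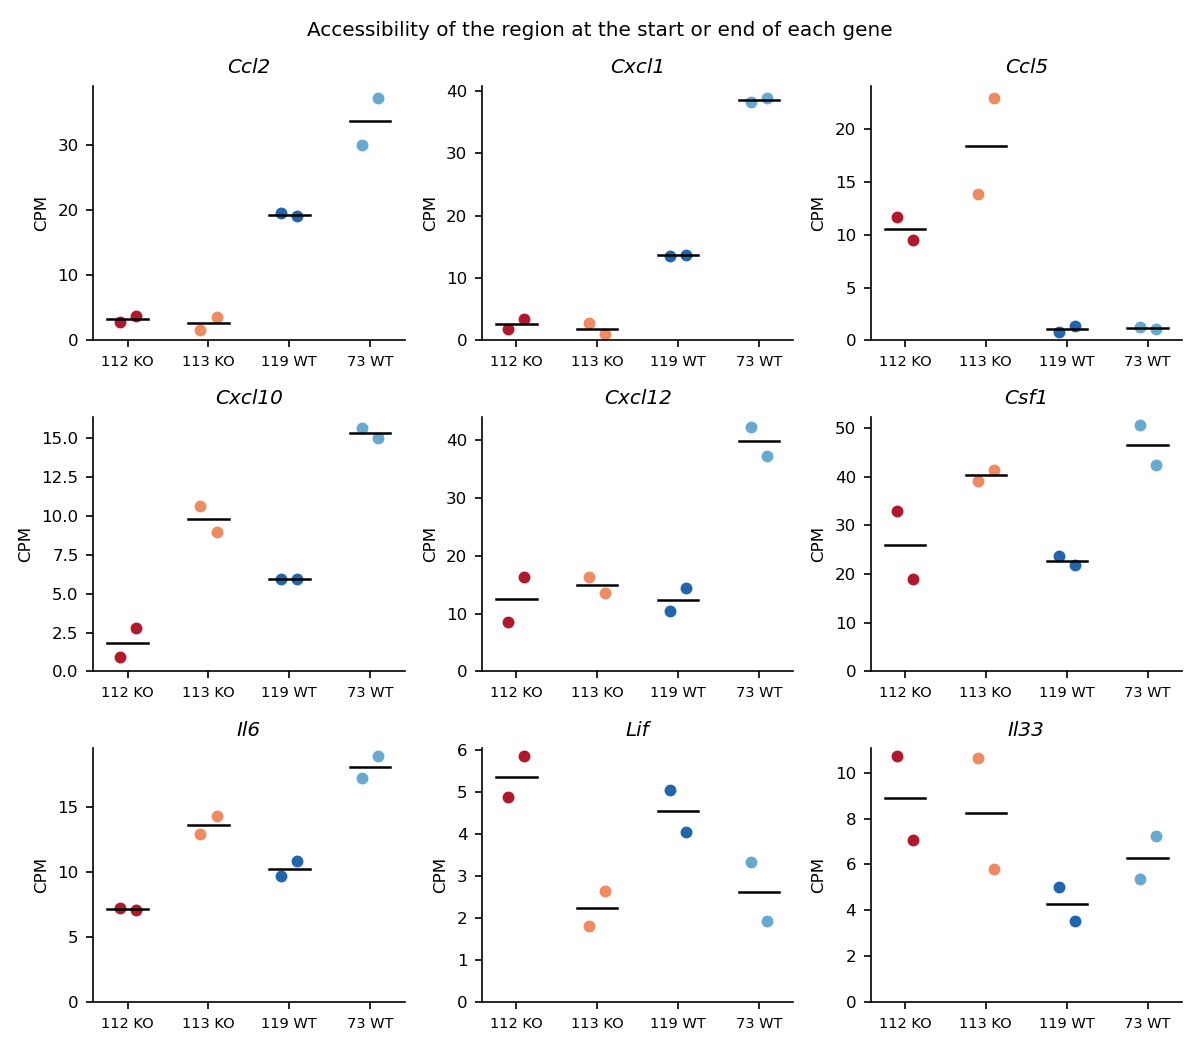
CPM of the region at the start of each gene (for Ccl2 the region at a gene end, and for Ccl5 the region 739 bp from one) in the 2 libraries of each line (points) with the line mean (bar). Ccl2 and Cxcl1 are low in both knockout lines, Ccl5 is high in both, and Cxcl12 is high in line 73 alone.

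At Cxcl1, the neutrophil chemokine, the start region (chromosome 5, 90890807 to 90891487), which contains the promoter sequence printed above, was likewise closed in the knockout lines. It held 1.86 and 3.39 CPM in line 112, 2.72 and 0.968 CPM in line 113, 13.6 and 13.7 CPM in line 119, and 38.2 and 38.9 CPM in line 73. Knockout and wild-type libraries did not overlap, and a peak was called in 0 of 4 knockout and 4 of 4 wild-type libraries. The log2 fold change by genotype was -3.56 (SE 0.88, adjusted p 0.143). Against line 119 alone it was -2.42 for line 112 (SE 0.35, adjusted p 8.38e-08) and -2.85 for line 113 (SE 0.36, adjusted p 1.37e-09). The wild-type lines also differed, with a log2 fold change of -1.50 for line 119 over line 73 (SE 0.23, adjusted p 1.17e-07).

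The rest of the Cxcl1 neighbourhood was less uniform. The strongest region, 14364 bp below the gene (90875883 to 90876881), had a peak in all 8 libraries and held 14.9 and 11.7 CPM in line 112, 30.4 and 24.9 CPM in line 113, 25.6 and 23.1 CPM in line 119, and 40.2 and 43.9 CPM in line 73. Line 113 lay among the wild-type values there and did not pass the threshold against line 119 (log2 0.18, SE 0.19, adjusted p 0.425). A weaker region 10332 bp below the gene (90880333 to 90880913) was separated, with 0.680 to 2.16 CPM in knockout and 3.07 to 7.88 CPM in wild-type libraries. The neighbouring neutrophil chemokine genes Cxcl2 and Cxcl3 had 0 of 3 and 0 of 2 tested regions separated, and Cxcl5 had 1 of 10, higher in knockout.

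Among 18187 tested regions within 1 kb of an end of another protein-coding gene, the 3 most like the Cxcl1 start region over the 8 log2(CPM + 0.5) values lay at Map9, Hoxc13 and Tnfaip2, at Euclidean distances of 0.99, 1.03 and 1.22. The region at Map9 averaged 2.86, 1.85, 18.1 and 55.5 CPM in lines 112, 113, 119 and 73, and the region at Hoxc13 2.31, 2.08, 17.0 and 29.7 CPM.

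**Figure D3:**
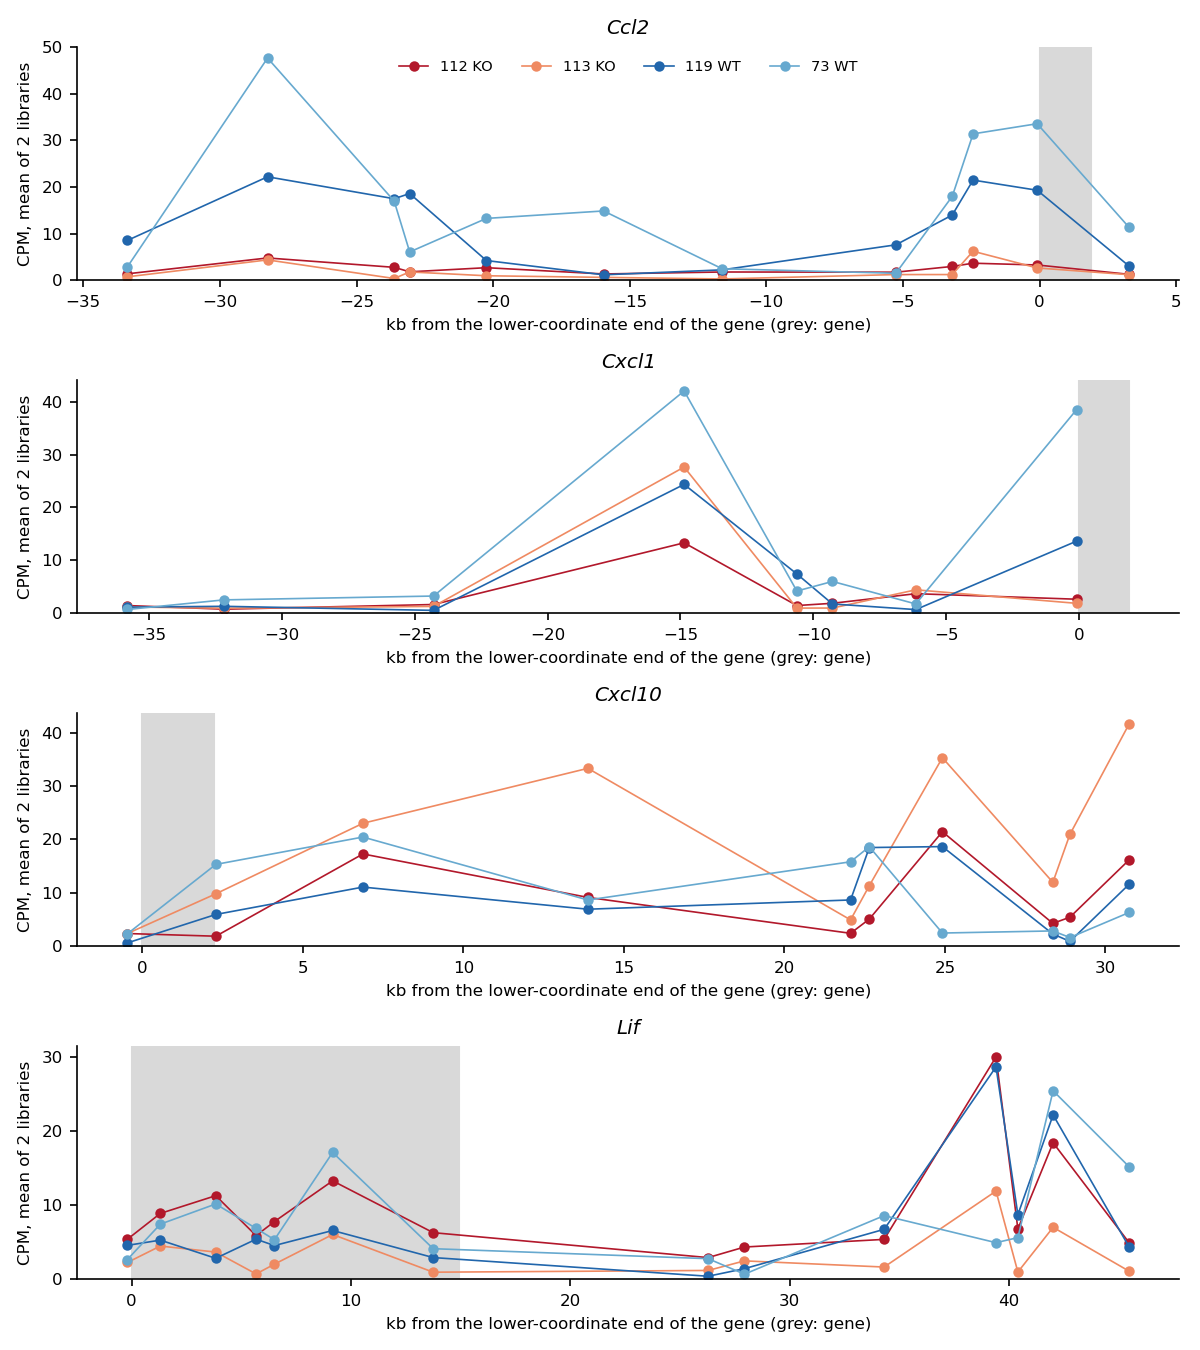
Mean CPM of the 2 libraries of each line at the member regions of Ccl2, Cxcl1, Cxcl10 and Lif, against distance in kb from the lower-coordinate end of the gene (grey band). Lines join neighbouring regions only to guide the eye. Both wild-type lines stand above both knockout lines at most Ccl2 regions, whereas at Lif line 113 is the lowest line at most regions.

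Cxcl10, an interferon-induced chemokine, had separated regions in both directions within about 10 kb of each other. Its start region (92348627 to 92349235), which contains the promoter bases printed above, held 0.931 and 2.77 CPM in line 112, 10.7 and 8.95 CPM in line 113, 5.95 and 5.91 CPM in line 119, and 15.6 and 15 CPM in line 73. Line 113 therefore lay between the wild-type lines and only line 112 was low. All neighbours in the order 73, 113, 119, 112 passed the threshold (adjusted p 0.0454, 0.0279 and 0.00057), and the genotype test gave a log2 fold change of -0.86 (SE 0.94, adjusted p 0.707). The region 26383 bp from the gene (92375272 to 92375792) held 6.52 and 4.31 CPM in line 112, 21.1 and 20.8 CPM in line 113, 1.42 and 0.338 CPM in line 119, and 1.54 and 1.67 CPM in line 73, a log2 fold change of 3.38 by genotype (SE 0.98, adjusted p 0.146). Against line 119 alone it was 2.52 for line 112 (adjusted p 8.75e-06) and 4.43 for line 113 (adjusted p 1.77e-15). Nearer the gene, the regions at 19525 bp (92368414 to 92368986) and 20118 bp (92369007 to 92369561) were separated the other way. The first held 2.33 to 4.98 CPM in knockout and 7.496 to 17.8 CPM in wild-type libraries, and the second 4.89 to 14.03 CPM and 17.8 to 19.5 CPM.

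Between these lay the strongest region of Cxcl10, 22374 bp from the gene (92371263 to 92371857). It was open in lines 112, 113 and 119, with 18.2 to 39.4 CPM, and had 1.28 and 3.61 CPM in line 73. Summed over the 10 regions, line 113 was highest with a mean of 195 CPM, against 85.3, 85.0 and 94.3 CPM in lines 112, 119 and 73. Line 113 was above line 112 at 7 of 10 regions and below it at 0. An offset for the median shift of each 10 Mb stretch, which is no measure of copy number, changed the Cxcl10 calls. With it, 3 regions of Cxcl10 were separated higher and 0 lower in knockout, in place of 1 and 2. The median shift of that stretch was -0.18 and -0.19 (log2) in lines 112 and 113 and 0.25 and 0.05 in lines 119 and 73.

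Cxcl12, the ligand of Cxcr4, differed mainly in line 73. Its start region (chromosome 6, 117168309 to 117169495) held 8.61 and 16.3 CPM in line 112, 16.3 and 13.6 CPM in line 113, 10.5 and 14.4 CPM in line 119, and 42.3 and 37.2 CPM in line 73. The libraries of lines 112, 113 and 119 overlapped one another, and both libraries of line 73 were above all others. Line 73 exceeded line 113, the next in order, by a log2 of 1.41 (SE 0.23, adjusted p 4.78e-07). Line 119 had its own strong region 25489 bp beyond the gene (117206857 to 117207880), with 28.6 and 27.9 CPM, against 3.26 to 7.70 CPM in the knockout libraries and 2.56 and 2.50 CPM in line 73. None of the 18 regions was separated by genotype. Line 73 was above line 119 at 10 of 18 regions and below it at 4. The 10 Mb stretch around Cxcl12 had median log2 shifts of 0.42, -0.17, -0.34 and -0.10 in lines 112, 113, 119 and 73. With the offset for such shifts, 1 region was separated, lower in knockout, and line 112 was below line 73 at 10 regions in place of 6.

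Il6 and Lif, the members whose receptors activate STAT3, showed no separated region without an offset for regional shifts. The start region of Il6 (chromosome 5, 30012983 to 30013586), which overlaps the printed promoter bases, had a peak in all 8 libraries and held 7.22 and 7.08 CPM in line 112, 12.9 and 14.3 CPM in line 113, 9.69 and 10.8 CPM in line 119, and 17.2 and 18.9 CPM in line 73. The genotypes overlapped (log2 fold change -0.44, SE 0.80, adjusted p 0.861). No neighbours in the order 73, 113, 119, 112 passed the threshold (adjusted p 0.179, 0.158 and 0.139), whereas some lines further apart did. The log2 fold change was -1.33 for line 112 over line 73 (SE 0.28, adjusted p 9.37e-05), -0.82 for line 119 over line 73 (SE 0.25, adjusted p 0.00418) and -0.92 for line 112 over line 113 (SE 0.29, adjusted p 0.015). A region 39022 bp below Il6 (29973547 to 29974092) was open in line 113 only, at 8.16 and 4.35 CPM against 0.466 to 1.94 CPM in the other 6 libraries.

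The start region of Lif (chromosome 11, 4257128 to 4257628) had few counts in every library, 7 to 39. It held 4.89 and 5.85 CPM in line 112, 1.81 and 2.66 CPM in line 113, 5.04 and 4.05 CPM in line 119, and 3.33 and 1.94 CPM in line 73, with a peak called in 1 library of line 119. Over the 14 regions of Lif, line 113 was the low line, below line 112 at 12 regions, below line 119 at 9 and below line 73 at 9. Its summed level was 46.1 CPM, against 131, 104 and 117 CPM in lines 112, 119 and 73. The 10 Mb stretch around Lif had a median log2 shift of -0.66 in line 113 over all its regions. With the offset for such shifts, line 113 was below line 112 at 3 of the 14 regions in place of 12, below line 119 at 6 in place of 9 and above it at 3 in place of 0, and below line 73 at 5 in place of 9. Under this offset 1 Lif region was separated, higher in knockout. The strongest Lif region, 24144 bp beyond the gene (4296658 to 4297286), held 35.6 and 24.3 CPM in line 112, 10.2 and 13.6 CPM in line 113, 27.5 and 29.7 CPM in line 119, and 5.38 and 4.45 CPM in line 73. The region 30078 bp beyond it (4302592 to 4303488) went the other way, with 16.1 and 14.2 CPM in line 73 and 0.680 to 5.85 CPM in the other libraries.

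Csf1, the macrophage growth factor, had its highest summed level in line 73. Its start region (chromosome 3, 107759811 to 107760636), which overlaps the printed promoter bases, had a peak in all 8 libraries and held 33.1 and 19.1 CPM in line 112, 39.2 and 41.4 CPM in line 113, 23.8 and 21.8 CPM in line 119, and 50.7 and 42.5 CPM in line 73. The genotypes overlapped (log2 fold change -0.05, SE 0.62, adjusted p 0.987). Elsewhere line 73 often stood alone. It was above all 3 other lines, past the threshold in each pair, at 15 of the 24 tested regions of Csf1. Not all of these had a peak call in line 73. Those at 107748519 to 107749463 and 107754522 to 107755106 had none in any library, and that at 107750664 to 107751197 had peaks in line 119 only. Peaks covered 14 and 12 of the 25 Csf1 regions in line 73, 11 and 9 in line 119, and 3 to 7 in the knockout libraries. The widest range was 40668 bp above the gene (107801137 to 107801640), where line 73 held 14.6 and 11.4 CPM and the other libraries 0 to 1.40 CPM. The summed level was 376 CPM in line 73 and 134 to 170 CPM in the others. One region was separated in each direction. That at 28315 bp (107788784 to 107789381) held 6.77 to 16.7 CPM in knockout and 2.59 to 5.89 CPM in wild-type libraries, and that at 15184 bp (107775653 to 107776734) held 10.5 to 12.8 CPM and 18.2 to 32.5 CPM. Against line 119 alone the first gave a log2 fold change of 1.62 for line 112 and 2.24 for line 113 (adjusted p 7.81e-05 and 1.83e-08), and the second -0.82 and -0.78 (adjusted p 0.00474 and 0.0043).

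Il33 had no member region over its first annotated start window. At its second start, within the gene (chromosome 19, 29945503 to 29946810), the region held 10.7 and 7.08 CPM in line 112, 10.7 and 5.81 CPM in line 113, 5.04 and 3.55 CPM in line 119, and 5.38 and 7.22 CPM in line 73, and the genotypes overlapped (log2 fold change 0.71, SE 0.83, adjusted p 0.736). Against line 119 alone both knockout lines were higher there, by a log2 of 1.05 in line 112 (SE 0.32, adjusted p 0.0062) and 0.92 in line 113 (SE 0.32, adjusted p 0.0118). A separated region lay 4022 bp before the gene (29920310 to 29921091). It held 1.86 and 1.54 CPM in line 112, 0.227 and 0.242 CPM in line 113, where each library had 1 count, 5.95 and 6.08 CPM in line 119, and 14.9 and 16.7 CPM in line 73. The log2 fold change by genotype was -3.47 (SE 1.06, adjusted p 0.155), against line 119 alone it was -1.79 for line 112 (adjusted p 0.000288) and -4.53 for line 113 (adjusted p 5.75e-09), and a peak was called in 0 of 4 knockout and 4 of 4 wild-type libraries. The region at 37151 bp (29887428 to 29887962) was also lower in knockout, with 0.968 to 3.72 CPM against 7.37 to 9.99 CPM. The region at 22089 bp (29902406 to 29903024) was higher, with 4.19 to 8.38 CPM against 0.556 to 1.94 CPM. The strongest Il33 region (29905828 to 29906429) held 5.23 to 15.4 CPM in lines 112, 113 and 119 and 1.02 and 1.94 CPM in line 73.

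Line 73 had the highest mean at 58 of the 111 member regions, line 119 at 19, and lines 112 and 113 at 17 each. The same shares over all regions were not computed. Line 73 was above each of the other 3 lines, past the threshold, at 38 of 109 regions (34.9%), against 13.2% of all tested regions. These were 15 regions of Csf1, 6 each of Ccl2 and Cxcl12, 4 of Il33, 3 of Cxcl1, 2 of Cxcl10 and 1 each of Lif and Ccl5. DESeq2 called 22 such regions in place of 38 with a background of 6.85%, and total-count scaling 32 with a background of 10.3%. The part of the stromal and melanocyte marker values given above in this result was not tested. Peaks were called at 48.6% and 45.9% of the member regions in the libraries of line 73, against 36.1% and 35.7% of all regions, and at 55.0% and 49.5% in line 119, against 61.1% and 54.8%. In the knockout lines the shares were 9.91% to 27.9% of member regions and 12.6% to 33.5% of all regions.

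In the pairs of lines, member regions were lower in line 113 than in line 73 at 64 of 109 (background 26.5%) and higher at 18 (background 25.8%). Line 112 was below line 73 at 49 (background 26.1%) and above it at 13 (background 23.8%). Line 119 was below line 73 at 51 (background 29.4%) and above it at 19 (background 27.5%). Line 112 was below line 119 at 26 (background 23.5%) and above it at 23 (background 22.2%), which is near the background. Line 113 was below line 119 at 39 (background 28.8%) and above it at 20 (background 30.2%). Between the knockout lines, line 112 was above line 113 at 23 members (background 8.24%), 12 of them at Lif. It was below line 113 at 14 (background 15.6%), 7 of them at Cxcl10. Without line 113 replicate 1, this pair had 23 member calls in place of 37, while the share of all regions called fell from 23.8% to 12.3%. Some of these shares depend on the scaling. With total counts in place of TMM, line 112 was above line 113 at 31 members and below it at 10, but the background turned round to 15.7% and 8.64%. Line 112 was then below line 73 at 42 members (background 19.0%) and above it at 22 (background 30.5%). The pairs share lines and are not independent.

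**Figure D4:**
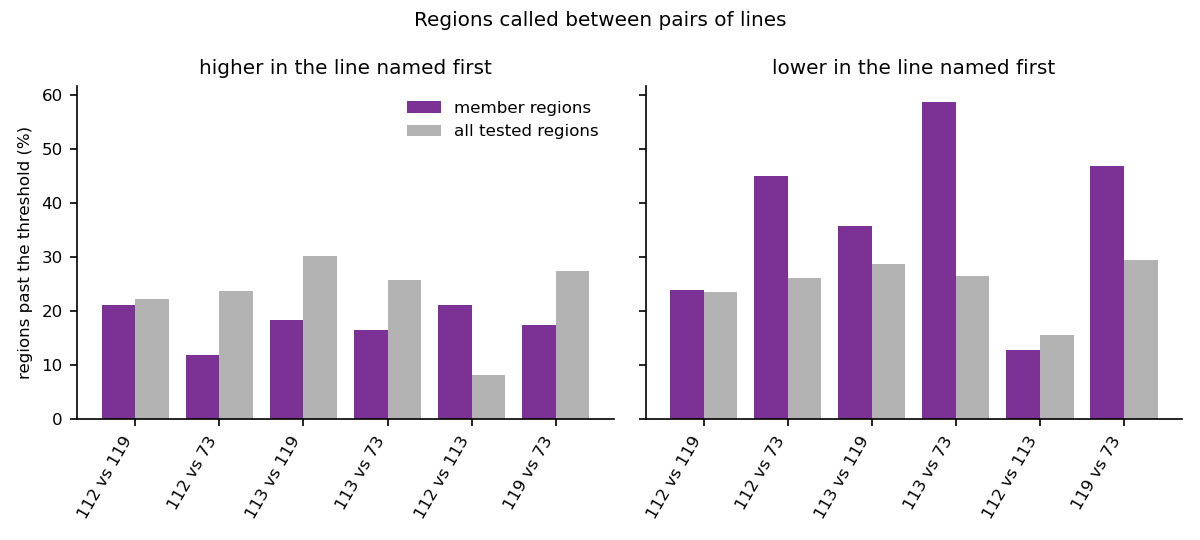
Percentage of the 109 tested member regions (purple) and of all 140329 tested regions (grey) past the threshold in each pair of lines, higher (left) or lower (right) in the line named first. Member regions lower than in line 73 make up 45.0%, 58.7% and 46.8% for lines 112, 113 and 119, against 26.1%, 26.5% and 29.4% of all regions.

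The other cytokine and chemokine genes, 42 with regions by the same rule, had 214 tested regions, of which 23 were separated lower (10.7%, against 7.41% of all regions) and 11 higher (5.14%, against 7.64%) in knockout, with a median log2 fold change of -0.50, against -0.09 for all regions. Il34, a second ligand of the Csf1 receptor, had 4 of 14 regions lower, and its strongest region averaged 9.70, 17.7, 46.8 and 87.9 CPM in lines 112, 113, 119 and 73. Clcf1, a relative of Lif, had 2 of 3 regions lower, with 6.33, 6.78, 33.7 and 43.6 CPM. Il16, which attracts CD4 cells, had 4 of 17 regions higher in knockout and 0 lower. The 14 receptor genes of the members had 103 tested regions, 11 lower (10.7%) and 5 higher (4.85%), with a median of -0.54. Il6st, which encodes gp130, and Il6ra had 2 of 9 regions each lower, and Il6ra had 1 higher. The strongest region of Cxcr3, the receptor of Cxcl10, averaged 6.19, 21.2, 10.2 and 0.278 CPM in lines 112, 113, 119 and 73, and that of Il1rl1, the Il33 receptor, 8.70, 2.71, 19.5 and 40.5 CPM.

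Markers of other cells that a lymph node holds were counted in the same way. Lymphocyte genes with regions (4 of 8) had 25 tested regions, 4 lower (16.0%, against 7.41% of all regions) and 1 higher (4.0%, against 7.64%) in knockout, and a summed level of 91.7 to 114.6 CPM in knockout and 129.1 to 157.5 CPM in wild-type libraries. Cd3g, Cd79a, Cd79b and Cd4 had no region by the rule. The 6 myeloid genes had 16 tested regions, 1 lower and 1 higher (6.25% each), with 75.2 to 100.1 CPM and 88.6 to 98.6 CPM, and the 4 endothelial genes 38, 4 lower (10.5%) and 1 higher (2.63%), with 131.8 to 150.2 CPM and 173.7 to 208.9 CPM. The part of these markers in the member results was not tested. The 9 melanocyte genes had 127 tested regions, 38 higher (29.9%) and 2 lower (1.57%) in knockout, with 934.5 to 1714 CPM in knockout and 520.3 to 697 CPM in wild-type libraries.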

How the data were processed

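ATAC-seq counts and peak calls of 8 libraries were used, each sample in the group of its line and genotype label. The authors deposited raw counts per region for all libraries, and a peak list per library that gives, peak by peak, a score, a ratio (fold enrichment) and −log10 values of p and q. Per the submitters' processing notes, the tools were Bowtie2 2.2.4, Picard 1.118 and MACS2 2.1.1.20160309, on mm10 (GRCm38). How duplicates and transposase offsets were treated in the counts is not given in the sources used here, so counting error may be larger than it appears. Columns of other samples numbered 0. The peak values are the authors' own and were used only to tell where a peak was called.

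Members were found with the RefSeq gene table of GRCm38.p6 (21887 protein-coding genes placed), which was used without exons, so exon or intron is not given. Coordinates are counted from 1. The members and gene lists were chosen with earlier results of these data known, and the named regions followed a rule: the start region, the region with the highest mean, up to 3 separated regions and the region with the widest range of line means for each gene. The start region was the one with most counts over a promoter window or, without one, within 1 kb of a gene end.

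All regions were fitted with edgeR 4.0.16 (R 4.3.3; TMM, filterByExpr with minimum count 10 and minimum total 15, robust glmQLFit, two-sided glmQLFTest, Benjamini-Hochberg adjustment over all 140329 tested regions, threshold 0.05). Of the member regions, 109 passed the filter and 2 (1 of Csf1, 1 of Il33) did not. The genotype test used counts summed per line, and the line pairs a mean per line over the 8 libraries. Fold changes are log2. Replicates of a line differed by 1.07 to 2.19 chi-square per degree of freedom and were kept apart. Alternatives were other scalings, a regional offset over 10 Mb, other filters, DESeq2 1.42.0, limma 3.58.1, libraries as units, a replicate block and leaving out each library.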

Additional observations from a re-analysis of the deposited data

Results flagged for a closer look

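The summed level of the 12 Ccl2 regions was 36.0 CPM in line 112 replicate 2, set apart from the other 3 knockout libraries, which held 19.9 to 22.5 CPM. It remained below the wild-type libraries, which held 136 to 223 CPM. Of 78 sets of 4 libraries examined in this way, 1 had such a gap, and chance alone gives about 1 in 20. This library is also the one with the fewest counts (2697546).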

How the results depend on the processing

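In the genotype test of the member regions, 0 were called in the fits that kept lines as units in edgeR, leave-one-out fits included, while over all regions 617 were called without line 112 replicate 1 and 205 when only regions on a peak call were fitted. DESeq2 called 10 (background 4.83%) and limma-voom with a line block 2 (background 0.339%). With libraries as units edgeR called 31 (background 22.7%), which treats libraries of a line as independent. Only 21 member regions have at least 50 counts on average. Among these, 10 (112 against 119), 17 (112 against 73), 16 (113 against 119), 17 (113 against 73), 6 (112 against 113) and 12 (119 against 73) were called, against 49.7%, 57.4%, 59.3%, 59.5%, 30.9% and 62.9% of all 24137 such regions. Of the 21, 0 were separated higher and 7 lower (background 5.62% and 12.1%). In line 73, 6 of the 21 were above all other lines, against 2415 of all 24137 such regions. Within 10 kb of a gene, 50 regions were tested, and the counts were 25, 30, 25, 37, 15 and 36 in the same order, with 1 separated higher, 5 lower and 24 above all in line 73. The share among all regions within 10 kb of genes was not computed, so these counts have no background. For these filters, fewer regions were tested. Between lines 112 and 113, DESeq2 called 23 in place of 37 (11.4% of all regions in place of 23.8%). Leaving out 1 library gave 23 to 36, lowest without line 113 replicate 1 (12.3% of all regions). The regional offset gave 8 separated higher in place of 4, against 6.96% of all regions in place of 7.64%, and the cause was not tested. DESeq2 gave 22 regions above all others in line 73 in place of 38, against 6.85% of all regions in place of 13.2%. Without line 73, a choice made after seeing the data, 10 were higher and 22 lower in both knockout lines, a rule of 2 pairs in place of 4.

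Of the named log2 fold changes, the start regions of Lif (0.01) and Csf1 (-0.05) changed sign. Lif gave -0.03 with relative log expression factors and with DESeq2 and -0.13 with limma-voom, and -0.13 to 0.15 without single libraries. Csf1 gave 0.02 with total counts, 0.03 on peaks only and 0.12 with limma-voom, and -0.25 to 0.07 without single libraries. These values are small beside their SE of 0.86 and 0.62. The replicate numbers did not pair the samples (correlations of deviations -0.037 to 0.004). With a replicate block the pairs gave 49, 61, 60, 81, 36 and 70 member calls, in the order given above. The shares of all regions called were 45.1%, 49.3%, 58.3%, 51.7%, 23.3% and 56.3%. Under this block 4 members were separated higher and 13 lower (background 7.48% and 7.3%), and 37 were above all in line 73 (background 12.9%). Depth limits the weak regions, since 3 counts come to 0.388 to 0.923 CPM.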
